A study of Mus musculus with 8 samples.

Results

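H3K36me2 peaks that share at least 1 bp with an H3K36me3 peak, outside chromosome 15, are regions of mouse chromatin where both methylation states of histone H3 lysine 36 were called. They were found by position alone, from the peak lists of the 2 marks, with no measured value in the rule. There are 234 of them, which is 16.7% of the 1400 H3K36me2 peaks outside chromosome 15 and 13.8% of the 1691 in the table. They meet 231 H3K36me3 peaks, 4.89% of the 4720 outside chromosome 15. The H3K36me3 and H3K27me3 lists hold 4999 and 999 peaks. Whether they were ended at a fixed number of peaks is not given in the sources used here. Stretches of these marks outside the lists would count here as uncovered, which bears on membership, coverage, distances and H3K27me3 overlaps. An H3K36me3 peak that meets such a region is called its partner, and the partner with the longest shared stretch supplies the H3K36me3 value set beside it.

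The values come from ChIP-Rx, chromatin immunoprecipitation sequencing scaled to a spike-in of Drosophila S2 chromatin equal to 5% of the mouse chromatin. The cells were C3H10T1/2, a mouse embryo-derived line of mesenchymal progenitors, at passages 10 to 15. One group stably expressed FLAG-HA-tagged H3.3 with lysine 36 replaced by methionine (K36M), and the other FLAG-HA-tagged wild-type H3.3 (WT), so both carried a tagged transgene. Each mark was measured in 1 K36M library and 1 WT library. Whether a line is 1 clone, and how much tagged H3.3 it made, is not given in the sources used here. The cell type could not be checked against marker genes, because no annotation of the files' build was used here.

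Methyl groups are added to H3K36 one at a time. NSD enzymes make much of the dimethyl state, in broad domains over genes and between them, and SETD2 makes the trimethyl state over the bodies of transcribed genes while it travels with RNA polymerase II. A nucleosome tail that is trimethylated at lysine 36 is not dimethylated there. Whether peaks of both marks on one stretch come from different tails, alleles or cells, or from how the antibodies bind or the peaks were called, was not tested. H3 with methionine at position 36 is known to inhibit both kinds of enzyme. Methylation of lysine 36 is also known to hinder Polycomb repressive complex 2, the writer of H3K27me3.

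The 234 regions covered 6.003 Mb and had a median length of 12.3 kb (quartiles 5.60 and 29.0 kb), against 12.9 kb for the 1166 other H3K36me2 peaks outside chromosome 15. H3K36me3 peaks covered 2.62 Mb of that length, or 43.7%. The shared stretches were 22.4% of the length of the 231 partners. Of the 234 regions, 107 lay wholly inside an H3K36me3 peak, 100 crossed an edge of their partner, and 27 contained their partner whole. The wholly covered regions were short, with a median of 6.20 kb, while those that crossed an edge had a median of 21.9 kb. By share of length, 54 regions were covered by under 25%, 46 by 25% to under 75%, 27 by 75% to under 100% and 107 in full. In 220 regions there was 1 partner, in 12 there were 2, and in 2 there were 3. Partners were also shared: 30 regions had a partner in common with another region, so they are not independent readings of H3K36me3.

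In the K36M library the overlapping regions had more H3K36me2 per kb than the other peaks had, while their WT levels were closer together. The median level was 15.5 spike-in normalized reads per kb in K36M and 45.4 in WT. The other 1166 peaks had 9.85 in K36M and 41.7 in WT. The spread among overlapping regions was wide in K36M, with quartiles of 12.3 and 24.5, against 8.49 and 11.3 for the other peaks. The plot of levels per peak shows this upper tail of K36M values.

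**Figure D1:**
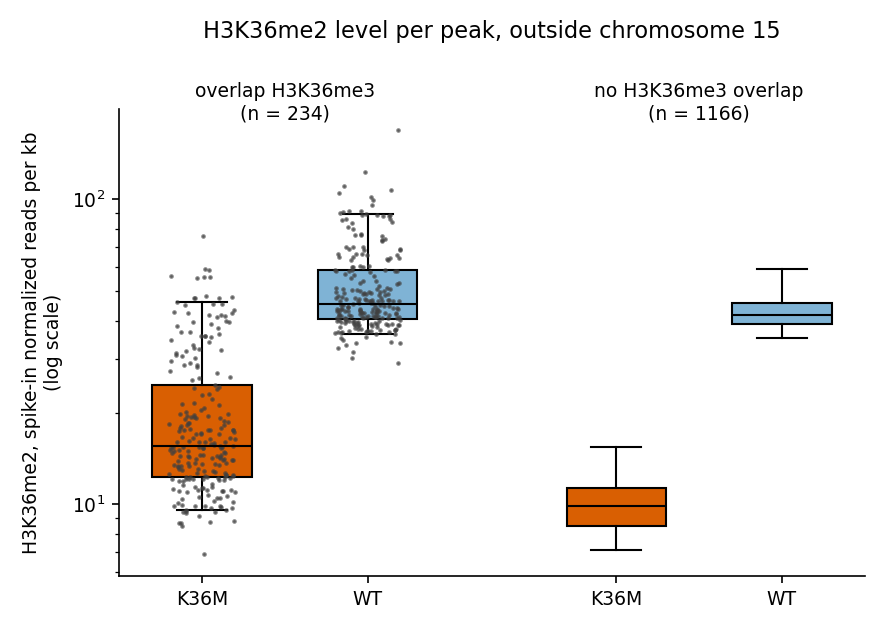
H3K36me2 level per peak in spike-in normalized reads per kb (log scale), K36M left of WT, for the 234 peaks that overlap H3K36me3 and the 1166 others outside chromosome 15. Boxes span the quartiles with the median, whiskers the 5th to 95th percentile, and points are single overlapping peaks. The K36M medians are 15.5 in overlapping and 9.85 in other peaks.

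All 234 regions had less H3K36me2 in K36M than in WT on the spike-in scale, from 1.26-fold to 7.49-fold lower. The same held for all 1691 listed H3K36me2 peaks, so the direction does not set the regions apart. Their summed signal was 96195 normalized reads in K36M and 288979 in WT, which leaves 33.3% of the WT level, against 23.6% over the other peaks. The median log2 ratio of K36M over WT was −1.50 (quartiles −1.82 and −1.10), 2.83-fold lower, and that of the other peaks was −2.11 (quartiles −2.28 and −1.94), 4.31-fold lower. The medians differed by 0.61. Of the 234 regions, 219 had a ratio above the median of the other peaks, and 193 had one above their upper quartile. The SD among the regions was 0.48 on the log2 scale, and counting error alone would give 0.12. Among the other peaks the SD was 0.29, where counting error alone would give 0.14. With 1 library per genotype the error between cultures was not measured, so none of these differences has a test.

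Of the 234 regions, 192 (82.1%) were lower in K36M by at least 2-fold, where the background over all 1691 listed H3K36me2 peaks was 97%. In 28 of the regions (12.0%) the difference was at least 4-fold, against a background of 59%. Values less than 2-fold lower were found in 42 of the regions (17.9%), where the background was 2.96%. Outside chromosome 15 there were 45 such peaks in all, so 42 of these 45 overlapped H3K36me3. The other 3 lay on chromosomes 4, 11 and 13, 68.8 to 277.8 kb from the nearest H3K36me3 peak, and were 1.66-fold to 1.84-fold lower.

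The signs depend on the spike-in. When both H3K36me2 libraries are given the same total over all peaks, which adds 2.01 to every log2 ratio, 206 of the regions become higher and 28 lower in K36M, with a median of 0.50. By the same scaling 397 of the other peaks become higher and 769 lower, with a median of −0.10. The difference of 0.61 between these medians is unaffected, because the offset is the same for every peak.

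The more of a region H3K36me3 covered, the smaller was the difference in H3K36me2, up to the class of 75% to under 100%. Regions covered by under 25% were 3.84-fold lower at the median in K36M (a log2 ratio of −1.94, quartiles −2.05 and −1.79), and none of these 54 was less than 2-fold lower. Those covered by 25% to under 75% were 2.99-fold lower (−1.58), with 3 of 46 less than 2-fold lower. Regions covered by 75% to under 100% were 2.10-fold lower (−1.07), with 11 of 27 less than 2-fold lower. The 107 wholly covered regions were 2.39-fold lower (−1.26, quartiles −1.60 and −0.96), and 28 of them were less than 2-fold lower. Over the 234 regions Spearman's rho between the share covered and the log2 ratio was 0.53. This is a description across regions of the same 2 libraries. Shorter regions were covered more, with a rho of −0.58 between length and the share covered.

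Peaks near H3K36me3 that did not touch it had a larger median difference than the overlapping regions. It was slightly smaller than in peaks 100 kb or more away. The 145 peaks less than 10 kb from an H3K36me3 peak were 4.15-fold lower at the median (log2 ratio −2.05). The 484 peaks at 10 to under 100 kb were 4.14-fold lower (−2.05), and the 537 at 100 kb or more were 4.55-fold lower (−2.19). The values on both sides of the overlap rule were alike in size. The fewest shared bases were 200, in 4 regions, which were 3.59-fold to 4.32-fold lower. The 3 nearest peaks outside the rule, 400 to 600 bp from H3K36me3, were 3.52-fold to 4.66-fold lower.

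**Figure D2:**
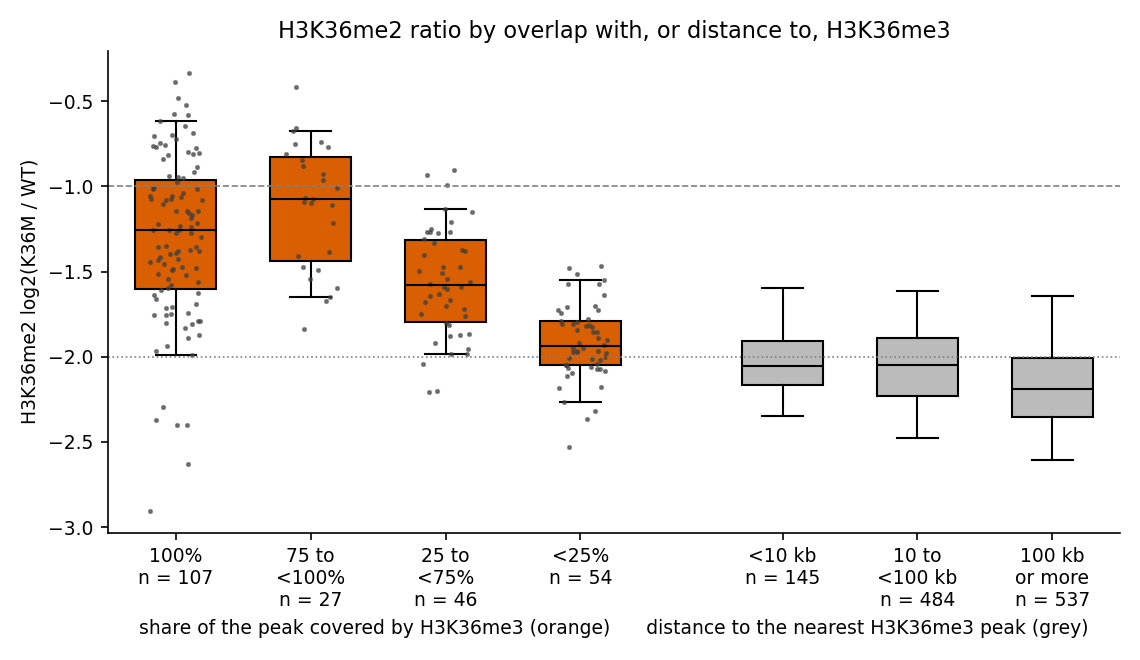
H3K36me2 log2 ratio of K36M over WT by the share of the peak covered by H3K36me3 (orange, 234 overlapping peaks as points) and by distance to the nearest H3K36me3 peak (grey, the other 1166 peaks). Boxes span the quartiles with the median, whiskers the 5th to 95th percentile, and the lines at −1 and −2 mark 2-fold and 4-fold lower. Medians run from −1.26 at full coverage and −1.07 at 75% to under 100% down to −1.94 under 25%, near the −2.05 of peaks less than 10 kb away.

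The overlapping regions had the smaller difference in every class of length. Under 5 kb the overlapping regions had a median 2.48-fold lower and the other peaks one 4.43-fold lower. At 5 to under 10 kb the overlapping regions were 2.59-fold lower and the others 4.24-fold. At 10 to under 20 kb the overlapping regions were 2.68-fold lower and the others 4.34-fold. At 20 to under 50 kb the values were 3.19-fold in overlapping regions and 4.25-fold in others, and at 50 kb or more 3.61-fold in overlapping regions and 4.31-fold in others. The other peaks thus had nearly the same median at every length, while the overlapping ones were lower by more the longer they were. Within each length class the regions covered by 50% or more were lower by less than those covered by under 50%, with 4 to 44 regions in each group. Among regions of 20 to under 50 kb, for example, the medians were 2.72-fold lower in the 22 with more coverage and 3.54-fold lower in the 30 with less. In the class of 50 kb or more they were 2.32-fold lower in 7 regions and 3.68-fold lower in 24.

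The partners had H3K36me3 ratios close to those of other H3K36me3 peaks, except where they were short. The 231 partners had a median log2 ratio of −1.66 (quartiles −1.83 and −1.39), 3.16-fold lower in K36M, against −1.70 in the 4489 other H3K36me3 peaks outside chromosome 15. At least 2-fold lower H3K36me3 was found in 203 of the partners (87.9%), where the background over all 4999 H3K36me3 peaks was 98.5%. The 80 partners under 20 kb were 2.58-fold lower, and 24 of them (30.0%) were less than 2-fold lower. The 1156 other H3K36me3 peaks of that length were 3.12-fold lower, and 34 were less than 2-fold lower. Partners of 20 to under 100 kb were 3.37-fold lower, against 3.29-fold in other H3K36me3 peaks of that length. Those of 100 kb or more were 3.41-fold lower, against 3.38-fold. In reads per kb the partners had a median of 6.45 in K36M and 20.7 in WT, and the other H3K36me3 peaks had 5.73 in K36M and 18.6 in WT.

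Set against their partners, the overlapping regions did not keep the order of the marks that holds over the whole tables. Each ratio is over a whole peak, H3K36me2 over the region and H3K36me3 over its partner, so the marks are compared over different stretches, and neither was measured within the shared stretch alone. H3K36me2 is lower by more than H3K36me3 over all listed peaks, at 4.19-fold against 3.28-fold by the medians. Over the 234 overlaps H3K36me2 was 2.83-fold lower and the partner's H3K36me3 3.20-fold lower, both by the median. H3K36me2 had the higher log2 ratio in 138 regions and the lower one in 96. The median difference, H3K36me2 minus H3K36me3, was 0.09 on the log2 scale (quartiles −0.20 and 0.35). Each mark was measured with its own antibody and spike-in factor, and the error of the difference between marks was not measured. With each mark's libraries scaled to the same total it would be 0.38. It varied with coverage. The median difference was −0.23 in regions covered by under 25%, where H3K36me2 had the lower ratio in 41 of 54, and 0.29 in wholly covered regions, where it had the higher ratio in 78 of 107.

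The relation between the marks differed with partner length. In the 74 regions whose partner was under 20 kb, both marks were lower by a similar factor, 2.34-fold for H3K36me2 and 2.30-fold for H3K36me3. In the 43 regions with a partner of 100 kb or more, H3K36me2 was 2.62-fold lower and H3K36me3 3.55-fold lower, and H3K36me2 had the higher ratio in 35. Among the 29 regions wholly inside a partner of 100 kb or more, H3K36me2 had the higher ratio in 27, with a median difference of 0.57 (quartiles 0.30 and 0.73). The 117 regions with a partner of 20 to under 100 kb had 3.23-fold lower H3K36me2, the most of the 3 classes, and 3.34-fold lower H3K36me3. Over all 234 regions the 2 ratios had a Spearman's rho of 0.48, as a description across regions that share libraries and, in part, partners. These length classes were set after the values were seen.

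**Figure D3:**
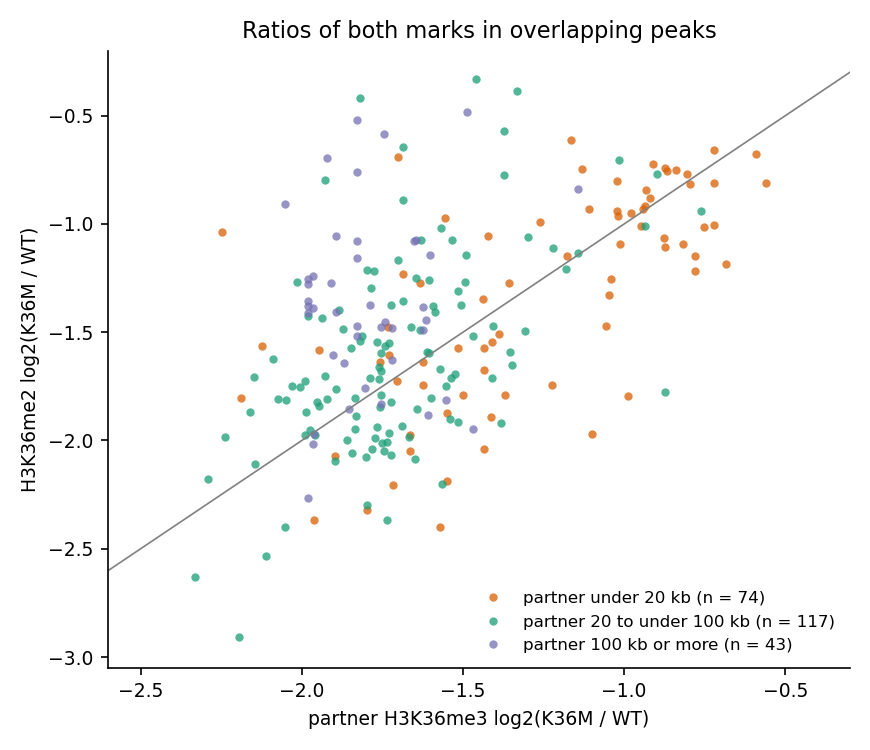
H3K36me2 log2 ratio of K36M over WT (vertical) against the H3K36me3 log2 ratio of the partner (horizontal) for the 234 overlapping peaks, coloured by partner length; the line marks equal ratios. Regions with partners of 100 kb or more lie mostly above the line (35 of 43), and 17 regions with partners of 25.2 kb or less lie at the upper right, where both marks are less than 2-fold lower.

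The 42 regions with less than 2-fold lower H3K36me2 had partners of both short and long length. In 17 of them the partner's H3K36me3 was also less than 2-fold lower (1.47-fold to 1.97-fold). These 17 regions were 4.00 to 13.8 kb long with partners of 4.00 to 25.2 kb, and 9 of them lay on chromosome 4, 2 on chromosome 5 and 2 on chromosome 8. Their median H3K36me2 level was 41.9 normalized reads per kb in K36M and 72.7 in WT, against 15.5 in K36M and 45.4 in WT over all overlapping regions. Before scaling, each of the 17 held more H3K36me2 reads in K36M than in WT. Their selection fixes this, as 1 read counts as 0.52 in K36M and 1.08 in WT. It holds for any region with less than 2-fold lower H3K36me2. Sequence uniqueness was not measured in these regions. In the other 25 the partner's H3K36me3 was at least 2-fold lower (2.02-fold to 4.15-fold). Of these, 20 lay wholly inside a partner, the median partner was 61.2 kb long, and 6 were on chromosome 16.

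Some regions with short partners lay in runs of neighbours. A run is taken here as 4 or more overlapping regions with at most 200 kb between neighbours, a rule set after the values were seen. There were 10 runs, and in 3 of them the median partner was under 20 kb. These 3 held 18 regions, 16 of them among the 74 with a partner under 20 kb, and 56 of those 74 lay in no run. Chromosome 5 held a run of 9 from 14923000 to 15202399, in which H3K36me2 was 1.84-fold to 2.38-fold lower and H3K36me3 1.65-fold to 2.06-fold lower. Chromosome 4 held a run of 5 from 144994200 to 145180399, with H3K36me2 1.60-fold to 2.14-fold lower and H3K36me3 1.47-fold to 1.86-fold lower. A second run of 4 on chromosome 4, from 146709200 to 146901199, had H3K36me2 1.67-fold to 1.93-fold lower and H3K36me3 1.74-fold to 1.97-fold lower. The difference of the log2 ratios, H3K36me2 minus H3K36me3, ran from −0.44 to 0.04 in the chromosome 5 run. It ran from −0.28 to 0.13 in the first run on chromosome 4 and from −0.02 to 0.13 in the second. Sequence uniqueness in these stretches was not measured, so how reads were assigned to them is not known.

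The other 7 runs, 6 on chromosome 11 and 1 on chromosome 17, had longer median partners and larger median H3K36me3 differences. In the first of them, a single H3K36me3 domain of 234.8 kb on chromosome 11, from 107973800 to 108208599, met 6 H3K36me2 peaks and was 3.94-fold lower in K36M (1021 normalized reads in K36M and 4028 in WT). The 5 H3K36me2 peaks wholly inside it, of 132.8 to 1241 normalized reads in WT, were 2.39-fold to 2.66-fold lower. The sixth, from 108206400 to 108243599, reaches out of the domain with 5.91% of its length inside, and was 4.81-fold lower. At this partner the values of the regions inside and of the one across the edge do not overlap, but this was not so at every partner. In all, 8 partners met both a wholly covered region and one that was not. At 5 of them every wholly covered region was lower by less, and at 3 it was lower by more. At a 130.2 kb partner on chromosome 11 the wholly covered region, of 3.00 kb, was 3.56-fold lower, and the region crossing its edge, 78.5% covered, was 2.78-fold lower. The other 2 such partners lay on chromosomes 5 and 17, with edge regions covered to 50% and 96.3%. At 4 of the 5 where the inside was lower by less, the edge region was 36.1% covered or less, and at the fifth it was 47.9% covered.

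Single regions show the range. The members named here were taken by fixed rules of rank among the 126 regions whose mean signal was at or above the median of all H3K36me2 peaks, unless another choice is stated. The highest ratio was on chromosome 1, from 33835400 to 33877199, a 41.8 kb region covered to 88.5%. It had 1998 normalized reads of H3K36me2 in K36M and 2668 in WT, a ratio of 0.749 (95% counting interval 0.712 to 0.788), while its partner had 893 in K36M and 3150 in WT, 3.53-fold lower. A region wholly inside H3K36me3 on chromosome 4, from 40773800 to 40797399, had 568 in K36M and 888 in WT, a ratio of 0.640 (0.584 to 0.702), within a 61.2 kb partner that was 3.22-fold lower. In these 2 H3K36me3 was lower by over 3-fold and H3K36me2 by less than 2-fold.

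The other 6 of the 8 highest ratios lay on chromosomes 4 and 8, 5 of them with a partner under 20 kb and 1 with a partner of 25.2 kb. A region on chromosome 8, from 19781000 to 19789399, had 472 in K36M and 723 in WT, a ratio of 0.653 (0.591 to 0.723), with H3K36me3 2.24-fold lower. Another on that chromosome, from 19938200 to 19949399, had 412 in K36M and 651 in WT, with H3K36me3 1.65-fold lower. On chromosome 4 the region from 145019600 to 145030199 had 438 in K36M and 700 in WT, a ratio of 0.626 (0.565 to 0.695), and its partner had 152 in K36M and 230 in WT. The remaining 3, all on chromosome 4, had ratios of 0.587 to 0.594.

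Among the 126 regions at or above the signal median, the 8 lowest ratios, 4.21-fold to 5.15-fold lower, belonged to domains of 37.2 to 362.6 kb. In 7 of the 8 the coverage was 18.2% or less. The lowest was a 357.4 kb domain on chromosome 11, from 111879200 to 112236599, with 3438 in K36M and 17710 in WT, a ratio of 0.194 (0.189 to 0.200). It contains a partner of only 1.20 kb, so 0.336% of it was covered, and that partner had 6.60 normalized reads of H3K36me3 in K36M and 25.7 in WT. A 92.8 kb domain on chromosome 2, from 148132800 to 148225599, was 5.00-fold lower with 4.31% covered. The exception in coverage was the strongest domain of all, on chromosome 10 from 83255200 to 83617799. It was 55.1% covered, by 3 partners, and had 5226 in K36M and 24045 in WT, 4.60-fold lower.

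Below that signal, the lowest ratios went against the pattern of coverage. Over all 234 regions, 5 of the 8 lowest ratios were in wholly covered regions. In all, 6 of the 107 wholly covered regions were at least 4-fold lower, by 4.92-fold to 7.49-fold, and all 6 were short, at 1.2 to 5.2 kb, and below the signal median. The lowest ratio of all was in a region of 1.20 kb on chromosome 11, from 67491400 to 67492599, with 14.6 in K36M and 109 in WT, a ratio of 0.133 (0.0845 to 0.205). Its 62.0 kb partner was 4.58-fold lower. A wholly covered region of 4.80 kb on chromosome 16, from 44537200 to 44541999, had 45.2 in K36M and 280 in WT, 6.18-fold lower, and its partner was 5.03-fold lower.

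Among wholly covered regions the 4 longest were lower by less than their partners. The longest, 98.6 kb on chromosome 1 from 90108200 to 90206799, had 3623 in K36M and 6478 in WT, a ratio of 0.559 (0.540 to 0.579), and the 105.2 kb partner had 1487 in K36M and 3283 in WT, 2.21-fold lower. The next, 73.2 kb on chromosome 17 from 30106200 to 30179399, had 1402 in K36M and 3095 in WT, 2.21-fold lower, within a 205.6 kb partner that was 3.04-fold lower. A 62.2 kb region on chromosome 11 from 117149600 to 117211799 was 2.08-fold lower, with its partner 3.71-fold lower. The fourth, 48.0 kb on chromosome 8 from 122789600 to 122837599, was 2.79-fold lower, and its partner had 593 normalized reads of H3K36me3 in K36M and 1956 in WT. In each of these 4 both libraries held far more reads than in the short regions, so counting error is small.

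In 12 regions, chosen after their values were seen, H3K36me2 was less than 2-fold lower wholly inside a partner of 40 kb or more. As this choice used the H3K36me2 ratio, a contrast with the partners is partly built in. Most wholly covered regions in long partners were lower by more. Less than 2-fold lower were 6 of 29 in partners of 100 kb or more, and 9 of 47 in partners of 20 to under 100 kb. The 12 were 1.80 to 98.6 kb long with a median of 6.30 kb. Their H3K36me2 was 1.26-fold to 1.85-fold lower, while the partners' H3K36me3 was 2.21-fold to 3.79-fold lower. Chromosome 16 held 5 of the 12. The highest ratio of all overlapping regions was one of them, 3.40 kb on chromosome 12 from 103015200 to 103018599, with 103 in K36M and 130 in WT, a ratio of 0.794 (0.630 to 1.00). This region held 198 reads in K36M and 120 in WT, and its counting interval reaches the value of no difference. A 6 kb region on chromosome 14 from 26371400 to 26377399 had 133 in K36M and 190 in WT, a ratio of 0.698 (0.573 to 0.850). It lay inside a 215.6 kb domain whose H3K36me3 was 3.56-fold lower. A pair of stretches in one 89.4 kb H3K36me3 domain on chromosome 16 lay from 92611600 to 92618999 and from 92648400 to 92660199. Their H3K36me2 was 1.49-fold and 1.71-fold lower, while the H3K36me3 of the domain was 2.59-fold lower.

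Overlapping regions were unevenly spread. Chromosome 11 held 57 of the 234, which is 41.9% of its 136 H3K36me2 peaks, followed by chromosome 4 with 28 of 116 and chromosome 17 with 23 of 103. Chromosomes 3 and 7 held none, with 30 and 20 H3K36me2 peaks and 192 and 249 H3K36me3 peaks. On each of the 13 chromosomes with 5 or more overlapping regions their median log2 ratio was above that of the other H3K36me2 peaks of the same chromosome, by 0.20 (chromosome 19) to 1.17 (chromosome 4). Chromosomes 4 and 5 had the highest medians among these, −1.08 and −1.09, and chromosome 14 had the lowest, −1.81. Without chromosome 11 the median of the regions was −1.47, and without chromosomes 4 and 5 it was −1.57.

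**Figure D4:**
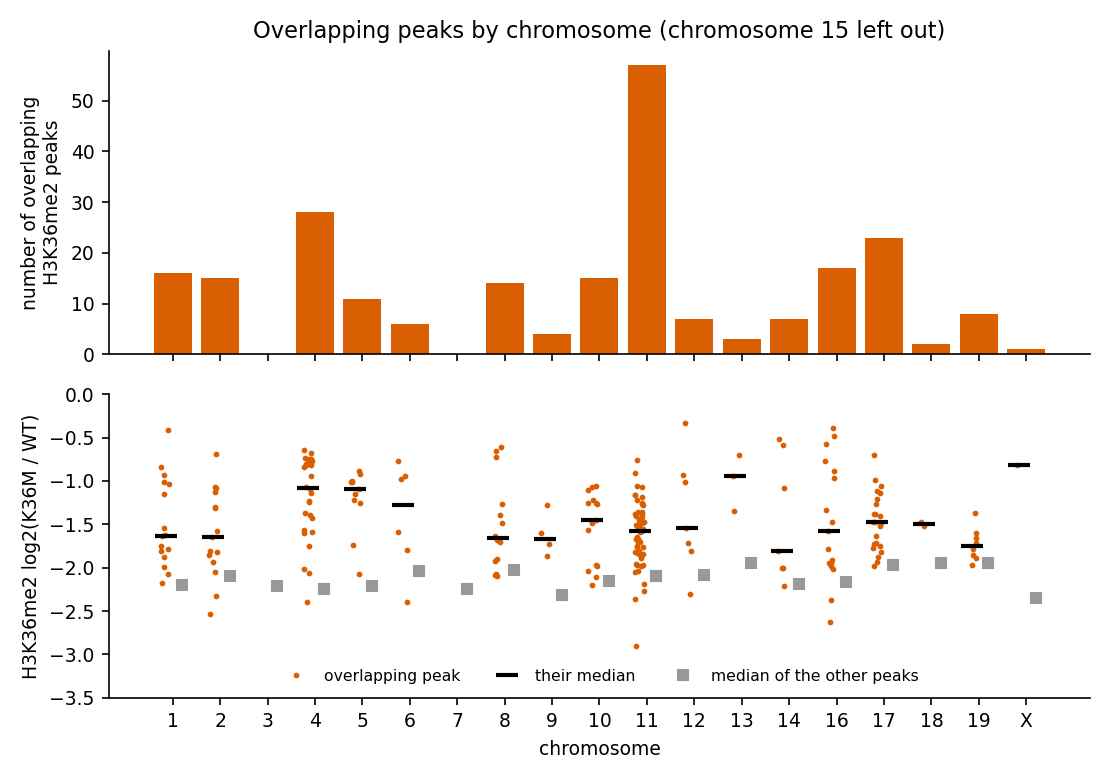
Number of overlapping H3K36me2 peaks per chromosome (upper panel) and their H3K36me2 log2 ratios of K36M over WT (lower panel, points with the median as a bar), beside the median of the other H3K36me2 peaks of that chromosome (squares). Chromosome 11 holds 57 of the 234, and the bars lie above the squares on each chromosome that has overlapping peaks.

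H3K27me3, the Polycomb mark of silenced regions, also had listed peaks in some of the regions. Its peaks met 20 of the 234 regions (8.55%) and 9 of the 1166 other H3K36me2 peaks (0.772%). In 17 of the 20, H3K27me3 peaks covered at least 50% of the region, and in 16 H3K36me3 peaks covered at least 75%. Whether all 3 marks are truly present there was not tested, as the input libraries were not used and sequence uniqueness was not measured. The chromosome 5 run described above held 6 of the 20. In WT the 20 had a median of 68.0 normalized H3K36me2 reads per kb, against 44.0 in regions without H3K27me3. The 20 regions lay on 9 chromosomes, with 7 on chromosome 5. Their H3K36me2 had a median 2.05-fold lower in K36M (1.33-fold to 3.35-fold), where it was 2.95-fold lower in the 214 regions without H3K27me3. The partners of the 20 had H3K36me3 1.92-fold lower at the median. Before scaling, the 20 regions held a median of 670 H3K36me2 reads in K36M and 600 in WT. Their 19 distinct partners held a median of 777 H3K36me3 reads in K36M and 807 in WT, so these fold values depend on the spike-in factors.

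The 20 H3K27me3 peaks that these regions met were mostly higher in K36M on the spike-in scale, with a median ratio of 1.60 (0.915 to 2.35). The size of these ratios, and the sign of the smallest increases, depend on the spike-in, as 1 read counts as 0.26 normalized reads in K36M and 0.18 in WT. Before scaling these peaks held a median of 1045.5 reads in K36M and 743.5 in WT. All 999 listed H3K27me3 peaks held 788 in K36M and 1215 in WT. Of these 20 peaks, 17 were higher, where the background over all 999 listed H3K27me3 peaks was 37.5%, and 13 were at least 1.5-fold higher, where it was 3.4%. On chromosome 5 the region from 15019200 to 15026199 had H3K36me2 of 293 in K36M and 591 in WT, 2.02-fold lower, under an H3K27me3 peak with 205 in K36M and 87.1 in WT, a ratio of 2.35. The 98.6 kb region on chromosome 1 described above met 2 H3K27me3 peaks, one with 1012 in K36M and 639 in WT, a ratio of 1.58, and one with 700.2 in K36M and 555 in WT, a ratio of 1.26. A region on chromosome 13, from 23493000 to 23504599, was among the 3 without a higher value, with 620 in K36M and 644 in WT over its H3K27me3 peak. These 20 are among the 38 listed H3K27me3 peaks that meet any H3K36me2 peak, whose median log2 ratio was 0.48, so they are no independent observation beside that value.

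**Figure D5:**
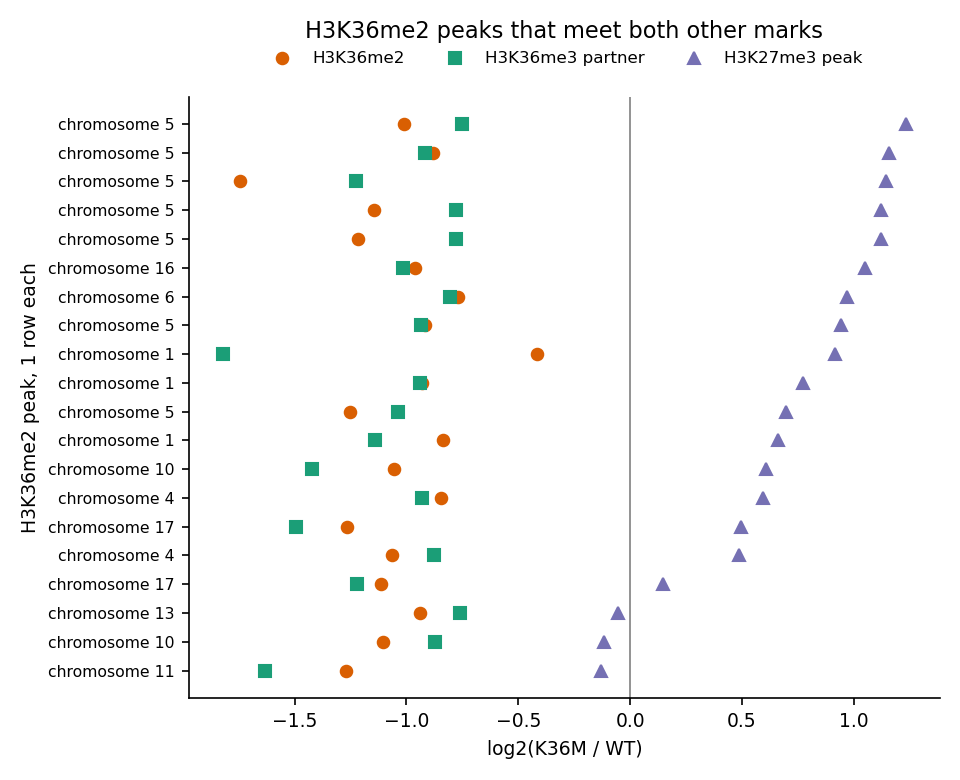
Log2 ratios of K36M over WT for the 20 overlapping regions that also meet an H3K27me3 peak, 1 row per region, ordered by the H3K27me3 ratio: H3K36me2 (circles), its H3K36me3 partner (squares) and the H3K27me3 peak with the longest shared stretch (triangles). All circles and squares lie below 0, and the triangles lie above it in 17 rows; 2 of these rows share 1 H3K27me3 peak.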

How the data were processed

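The 6 ChIP libraries (3 marks, K36M and WT) were used, 1 per group, and the 2 input libraries were not used. Per the file headers, the authors deposited a spike-in normalized signal, reads per peak multiplied by a factor from the Drosophila reads. The submitters' processing notes name Bowtie 1.0.0, mm9 and dm6. How and in which library peaks were called, and how the factor was computed, is not given in the sources used here. Positions are those of the files, which count from 0, so a browser shows each end 1 higher; no mm9 sequence or gene was used here.

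Both ends of a peak were read as included, and coverage is the union of H3K36me3 peaks. Ratios are K36M over WT with no pseudocount. All values in a column are multiples of 1 step, read as 1 read. The step was 0.52 in K36M and 1.08 in WT for H3K36me2, and 0.22 in K36M and 0.39 in WT for H3K36me3. For H3K27me3 it was 0.26 in K36M and 0.18 in WT. The 234 regions then held a median of 457.5 reads in K36M and 579 in WT, with at least 28 in K36M and 86 in WT. Exact Clopper-Pearson 95% intervals of single ratios cover counting error only. No test between genotypes was possible and no p-value is given. Background shares are over all listed peaks of a mark. Named regions are the 8 lowest and 8 highest ratios and the 4 highest WT values among those whose mean signal reached the median of all H3K36me2 peaks, the 4 longest wholly covered regions, and the 3 regions nearest each side of the overlap rule. The regions, classes and rules were chosen with earlier results of these data known. The calculations were tested on simulated counts and against bedtools. Alternatives were another pseudocount, signal filter, scaling, overlap rule, threshold, partner and chromosome set. Python 3.11.15, numpy 2.4.6, pandas 2.3.3, scipy 1.17.1 and matplotlib 3.10.9 were used.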

Additional observations from a re-analysis of the deposited data

How the results depend on the processing

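Of 66 alternatives to the 8 summary results, 46 lay inside the rank interval of the median, or for counts within a factor of 1.5; the cause of the other changes was not tested unless the setting itself gives it. Requiring at least 50% coverage left 153 regions, with a median log2 ratio of −1.27, 0.82 above all other peaks, 112 at least 2-fold lower, and a difference between marks of 0.18. With chromosome 15 included the median was −1.63, 0.49 above the others, 289 regions were at least 2-fold lower, and the partner median was −1.74. A pseudocount at the 5th percentile gave −1.27 for the regions and −1.41 for the partners. When weaker peaks, with a mean below the median, were left out, 105 regions were at least 2-fold lower and the partner median was −1.75. Scaled to the same total, the medians reversed to 0.50 for the regions and 0.055 for the partners, 0 regions were at least 2-fold lower and the difference between marks was 0.38, all by construction of that scaling. Without the densest 10% of peaks the median was −1.65, 0.46 above the others. At a 4-fold threshold 28 regions were lower. Without the runs, chromosome 11, or chromosomes 4 and 5, all added after the data were seen, the difference from the other peaks was 0.52 to 0.64, and without peaks that meet H3K27me3 it was 0.55. A pseudocount kept the log2 ratios of all 23 named regions inside their counting intervals. No paired analysis was possible because each group has 1 library, and no replicate could be left out.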
